A study of Homo sapiens with 3 samples.

Results

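The genes described here encode heparan sulfate proteoglycans: the syndecans SDC1, SDC2, SDC3 and SDC4, the glypicans GPC1, GPC3 and GPC4, and the matrix proteoglycans perlecan (HSPG2) and agrin (AGRN). These 9 genes were listed by name and family, with earlier results of these data known, and each matched 1 of the 60664 Ensembl gene identifiers in the count table. Transcripts were counted by RNA sequencing in Caco-2, an epithelial line from a human colon carcinoma that takes on features of enterocytes and is labelled wild type in every group. The first group received 30 µM polydatin, a glucoside of resveratrol, for 2 h and then polydatin together with 3% dextran sulfate sodium (DSS) for 8 h. The second group received 3% DSS for 8 h, and the third was an untreated control kept in a standard incubator. Each group had 1 library, so differences between groups have no replicate check and are given without a p-value. As its title puts it, the series is about whether polydatin protects against DSS injury through NRF2 and ferroptosis.

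Heparan sulfate proteoglycans are proteins with long sulfated sugar chains that bind growth factors, chemokines and matrix proteins. Syndecans cross the plasma membrane, glypicans are held on it by a lipid anchor, and perlecan and agrin lie in basement membranes. The chains are started on serine residues, lengthened by the EXT enzymes and then sulfated, and they can be trimmed outside the cell by sulfatases and heparanase. In the gut, SDC1 is the main syndecan of the epithelial surface, and loss of heparan sulfate from the epithelium is a known feature of inflamed mucosa. DSS is itself a sulfated polysaccharide.

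Levels are given in CPM, the count of a gene relative to its library's total after adjustment by the trimmed mean of M-values (TMM). Library totals were 16667622 counts for DSS with polydatin, 18825914 for DSS and 18695613 for control, so that 1 CPM stood for 17.4, 18.5 and 18.2 counts. Of 12 epithelial and enterocyte markers, 10 reached 1 CPM in all 3 libraries and CDX1 was at 0 in all 3. Summed, the list had 7146 CPM in DSS with polydatin, 8865 in DSS and 7469 in control, most of it from KRT8 and KRT18. The enterocyte gene SI had 8.54, 9.28 and 47 CPM in the same order and CDX2 had 78.3, 118 and 147 CPM. Other genes of the list went the other way, among them ALPI (30.5, 24.9 and 18.6 CPM) and CDH1 (738, 698 and 586 CPM). The 8 fibroblast markers summed to 61.5, 55 and 68.2 CPM in the same order, with THY1 at 0 in DSS and in control and COL1A2 and DCN at 0 in control. The 5 endothelial markers summed to 13.5, 17.5 and 24.9 CPM, with KDR at 0 throughout, PECAM1 at 9.52, 16 and 24.4 CPM and VWF at 3.9, 1.19 and 0.496 CPM. The 6 immune markers summed to 5.16, 5.34 and 3.97 CPM, with PTPRC and MS4A1 at 0 throughout. Nearly all of it came from CD14 (2.35, 3.45 and 2.59 CPM) and ITGAM (2.47, 1.84 and 1.38 CPM). The part of these markers in the results below was not tested. In bulk RNA, fewer cells of a type and less RNA per cell cannot be told apart.

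A gene was measured when it reached 1 CPM in at least 1 library, which held for 8 of the 9 members and for 14792 genes in all. GPC4, a cell-surface glypican, fell short with 9 counts in DSS with polydatin, 8 in DSS and 5 in control. Its level of 0.516, 0.432 and 0.275 CPM lay above the 0.172, 0.162 and 0.165 CPM to which 3 counts correspond, and its ratios had intervals that reached 1 in every comparison (for DSS against control 1.57, interval 0.452 to 6.09). Intervals given throughout are exact 95% Clopper-Pearson intervals on the counts of 2 libraries. The reads carried no molecular identifiers and may not be independent, so these intervals and the limit of 3 counts cover counting error only.

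**Figure D1:**
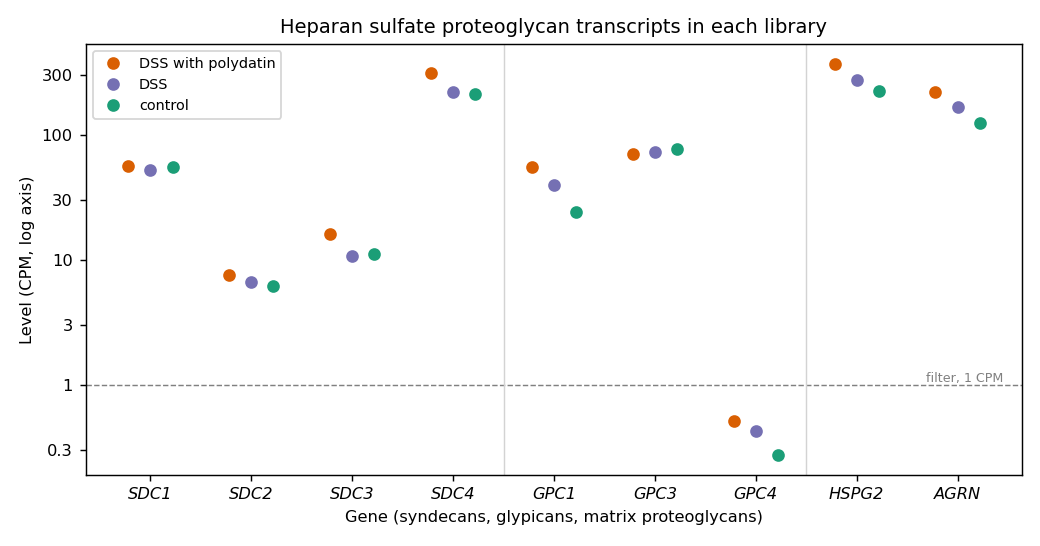
Level of each proteoglycan gene in each library, in CPM on a log axis, with 1 point per library and the libraries ordered DSS with polydatin, DSS and control from left to right. HSPG2, SDC4 and AGRN stood highest in every library, GPC4 stayed below the dashed filter at 1 CPM, and GPC1 was 55.2, 39.5 and 24.1 CPM.

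Compared per length of exons, syndecan transcripts made up most of the proteoglycan pool. SDC4, a syndecan found at focal adhesions, stood at 120 CPM per kb in DSS with polydatin, 83.8 in DSS and 80.9 in control. That was 55.7% of the summed level of the 9 members per length in DSS with polydatin, 50.7% in DSS and 52% in control. GPC3, an oncofetal glypican that binds hedgehog and WNT ligands, came next with 25.8, 27 and 28.4 CPM per kb. HSPG2 followed with 20.5, 15.2 and 12.4 CPM per kb and AGRN with 20.5, 15.6 and 11.6. SDC1, the epithelial syndecan, had 15.7, 14.6 and 15.5 CPM per kb, so SDC1 stood above both matrix genes in control, while both were above SDC1 in the libraries with DSS. The order of GPC3, HSPG2, AGRN and SDC1 depends on the length used. Merged exons span 18104 bases for HSPG2, 10758 for AGRN and 3595 for SDC1. Their longest transcripts have 14327, 7394 and 3291 bases. The least abundant measured members were GPC1 (8.47, 6.06 and 3.69 CPM per kb), SDC3, best known from neurons (2.29, 1.51 and 1.57), and SDC2, best known from mesenchymal cells (1.67, 1.46 and 1.36). By class, the matrix pair held 19.1% of the pool per length in DSS with polydatin, 18.7% in DSS and 15.5% in control. Glypicans held 16%, 20% and 20.7%, and syndecans 64.9%, 61.3% and 63.9%. Summed over the 9 members the level was 215 CPM per kb in DSS with polydatin, 165 in DSS and 155 in control.

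**Figure D2:**
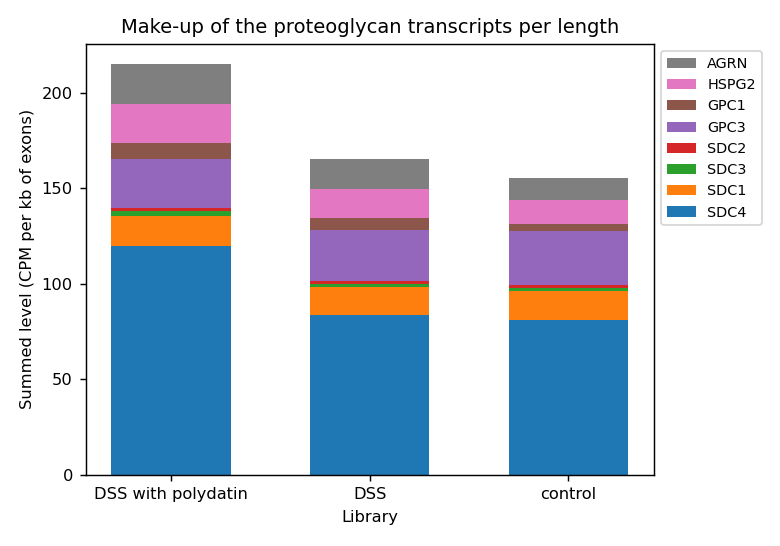
Summed level of the 8 measured members in each library, in CPM per kb of exons, stacked by gene. SDC4 is the largest layer in each library, and the whole column reaches 215 CPM per kb in DSS with polydatin, against 165 in DSS and 155 in control.

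Promoter windows of 6 of the 9 members were taken from the RefSeq table for GRCh38.p14. None was taken for SDC2, GPC3 or AGRN, which does not show that the table lacks them. The 250 bases before the transcription start are shown for SDC4, the most abundant member per length, and for GPC1 and HSPG2, which had the widest range over the 3 libraries and the highest mean CPM of the members. Capitals mark the GC box GGGCGG on either strand, and each sequence runs 5′ to 3′ on the strand of its gene.
SDC4 (chr20:45348425-45348674, minus strand): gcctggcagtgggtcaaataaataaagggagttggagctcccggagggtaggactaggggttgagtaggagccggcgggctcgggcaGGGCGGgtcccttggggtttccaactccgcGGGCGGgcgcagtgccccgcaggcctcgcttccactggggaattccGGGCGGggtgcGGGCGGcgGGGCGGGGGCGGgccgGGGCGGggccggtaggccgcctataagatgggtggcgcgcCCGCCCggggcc
GPC1 (chr2:240435413-240435662, plus strand): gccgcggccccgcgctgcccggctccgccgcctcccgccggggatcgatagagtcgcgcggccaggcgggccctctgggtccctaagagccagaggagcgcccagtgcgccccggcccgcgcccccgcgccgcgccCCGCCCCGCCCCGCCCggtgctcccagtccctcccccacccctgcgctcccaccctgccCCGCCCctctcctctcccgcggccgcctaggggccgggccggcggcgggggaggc
HSPG2 (chr1:21937311-21937560, minus strand): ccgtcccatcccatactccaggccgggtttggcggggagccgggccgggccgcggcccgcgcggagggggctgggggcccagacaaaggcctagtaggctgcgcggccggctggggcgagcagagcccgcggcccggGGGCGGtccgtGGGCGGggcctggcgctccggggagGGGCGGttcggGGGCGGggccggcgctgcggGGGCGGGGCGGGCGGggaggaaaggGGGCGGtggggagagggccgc

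The SDC4 window held 8 GC boxes, the HSPG2 window 8 and the GPC1 window 4, and neighbouring boxes overlapped in the HSPG2 and GPC1 windows. At least 1 GC box was present in 42.6% of the 35116 promoter windows of this length. GC content was 73.6% for SDC4, 84% for GPC1 and 82.8% for HSPG2, beside a median of 58% over all windows. The SDC4 window alone of the 3 held a match to the kappa B consensus, starting 97 bases before the transcription start, and a TATAA motif starting 31 bases before it. A kappa B match occurred in 5.21% of all windows and TATAA in 18.9%. Neither the AP-1 motif TGANTCA (6.57% of all windows) nor the antioxidant response core TGACNNNGC (10.9%) was found on either strand in these 3 windows. A match describes letters in the window and says nothing about binding.

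DSS against control addresses how cells given DSS differed from untreated cells. GPC1 was higher in DSS, and the other measured members stood within 1.5-fold of control. GPC1 (chromosome 2, 240435671 to 240468078, GRCh38), a glypican that presents fibroblast growth factors to their receptors, had 732 counts in DSS and 437 in control, 1.64 times the control level (interval 1.46 to 1.85). A gene was called when its ratio reached 1.5-fold either way and its interval left out 1. GPC1 was the only member called, 1 of 8 measured, against 9.45% of all measured genes called higher and 5.81% called lower in this comparison. By ratio GPC1 ranked 1288 of 14792 from the highest. After the smooth dependence of the ratio on GC content and on the length of the transcript, fitted over all measured genes, had been removed, its ratio was 1.31 (1.16 to 1.48) and it was not called.

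The matrix genes stood above control by less than the size used for calls, and not after the dependence on GC content and transcript length was removed. AGRN (chromosome 1, 1020123 to 1056118), which clusters acetylcholine receptors at the nerve-muscle junction and is a basement membrane component elsewhere, had 3113 counts in DSS and 2265 in control, a ratio of 1.35 (1.28 to 1.42). HSPG2 (chromosome 1, 21822245 to 21937297), which encodes the large basement membrane proteoglycan perlecan, had 5112 counts in DSS and 4087 in control, a ratio of 1.23 (1.18 to 1.28). Both intervals excluded 1, but with that dependence removed AGRN stood at 1.02 (0.970 to 1.08) and HSPG2 at 0.933 (0.895 to 0.972), below control. The counts were made with an unknown strand setting, and 11.7% of the exonic bases of HSPG2 overlap LDLRAD2 on the opposite strand, while 3.7% of those of AGRN overlap a gene on the same strand. The other 7 members share no exonic base with another annotated gene.

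The syndecans and GPC3 stood close to control in DSS. SDC4 (chromosome 20, 45325288 to 45348424) had 4057 counts in DSS and 3838 in control, a ratio of 1.04 (0.991 to 1.08). SDC1 (chromosome 2, 20200797 to 20225433) had 974 counts in DSS and 1012 in control, a ratio of 0.943 (0.863 to 1.03). GPC3 (chromosome X, 133535745 to 133985895) had 1357 counts in DSS and 1396 in control, a ratio of 0.953 (0.883 to 1.03). The intervals of these 3 well-counted genes reached 1 and left no room for a difference of 1.5-fold from counting error alone. SDC3 had 198 counts in DSS and 202 in control (0.961, interval 0.786 to 1.17), and SDC2 had 123 and 112 counts (1.08, 0.826 to 1.40). The median log2 ratio of the 8 members was 0.08, with 5 above 0 and 3 below, beside -0.01 over all measured genes.

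DSS with polydatin against DSS addresses how cells given both agents differed from cells given DSS alone. Both comparisons use the same DSS library. SDC3 and SDC4 were higher with polydatin, as were GPC1, HSPG2 and AGRN, by 1.32- to 1.51-fold, while SDC1, SDC2 and GPC3 had intervals that reached 1. SDC3 (chromosome 1, 30869467 to 30908761) had 282 counts in DSS with polydatin and 198 in DSS, 16.2 against 10.7 CPM and a ratio of 1.51 (interval 1.26 to 1.82). It was the only member called, 1 of 8, against 5.39% of all measured genes called higher and 2.60% called lower. Its ratio lay just above the 1.5-fold size, and with the dependence on GC content and length removed it was 1.38 (1.15 to 1.67) and not called.

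SDC4 had 5447 counts in DSS with polydatin and 4057 in DSS, 312 against 219 CPM, a ratio of 1.43 (1.37 to 1.49). GPC1 had 962 counts in DSS with polydatin and 732 in DSS, a ratio of 1.40 (1.27 to 1.54). HSPG2 had 6466 and 5112 counts, a ratio of 1.34 (1.3 to 1.39). These 3 genes lay above the DSS level by more than counting error and short of the size used for calls. AGRN had 3854 counts in DSS with polydatin and 3113 in DSS, a ratio of 1.32 (1.25 to 1.38). By comparison, SDC1 had 985 and 974 counts (1.07, 0.982 to 1.18), SDC2 had 132 and 123 counts (1.14, 0.885 to 1.47), and GPC3 had 1219 and 1357 counts (0.954, 0.883 to 1.03). The median log2 ratio of the 8 members was 0.41, with 7 above 0 and 1 below, beside -0.01 over all measured genes, of which 7162 of 14792 were above 0. With total-count scaling SDC4 was called as well (1.52, 1.46 to 1.58). That scaling also moved the split of calls over all measured genes from 797 higher and 384 lower to 1132 higher and 234 lower, and a floor of 10 CPM gave 237 higher and 234 lower.

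DSS with polydatin against control shares a library with each comparison above, so its values add no independent evidence. GPC1 was 2.29 times the control level (2.05 to 2.57), AGRN 1.77 times (1.68 to 1.87) and HSPG2 1.65 times (1.58 to 1.71). These 3 were the members called, 3 of 8, against 16.0% of all measured genes called higher and 12.4% called lower. With the dependence on GC content and length removed, AGRN stood at 1.12 (1.07 to 1.18) and HSPG2 at 1.06 (1.02 to 1.10), neither called, while GPC1 stood at 1.57 (1.40 to 1.76) and SDC4 at 1.56 (1.5 to 1.63), both called. Without that step SDC4 stood at 1.48 times control (1.42 to 1.54) and SDC3 at 1.45 times (1.21 to 1.75), both under the size used for calls, and both were called with total-count scaling (1.59 and 1.57). SDC1 stood at 1.01 times control (0.927 to 1.11), SDC2 at 1.23 times (0.947 to 1.59) and GPC3 at 0.909 times (0.841 to 0.983). The median log2 ratio was 0.55, beside -0.02 over all measured genes. Total-count scaling gave 2957 genes higher and 1238 lower over all measured genes, against 2367 higher and 1829 lower with TMM, and a floor of 10 CPM gave 1269 and 1315 for DSS with polydatin against control. At 2-fold, GPC1 was still called in DSS with polydatin against control, 1 of 8 members, against 8.53% of all measured genes higher and 3.27% lower. No member was called at 2-fold in DSS with polydatin against DSS, against 1.94% higher and 0.460% lower, or in DSS against control, against 4.24% higher and 1.76% lower.

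**Figure D3:**
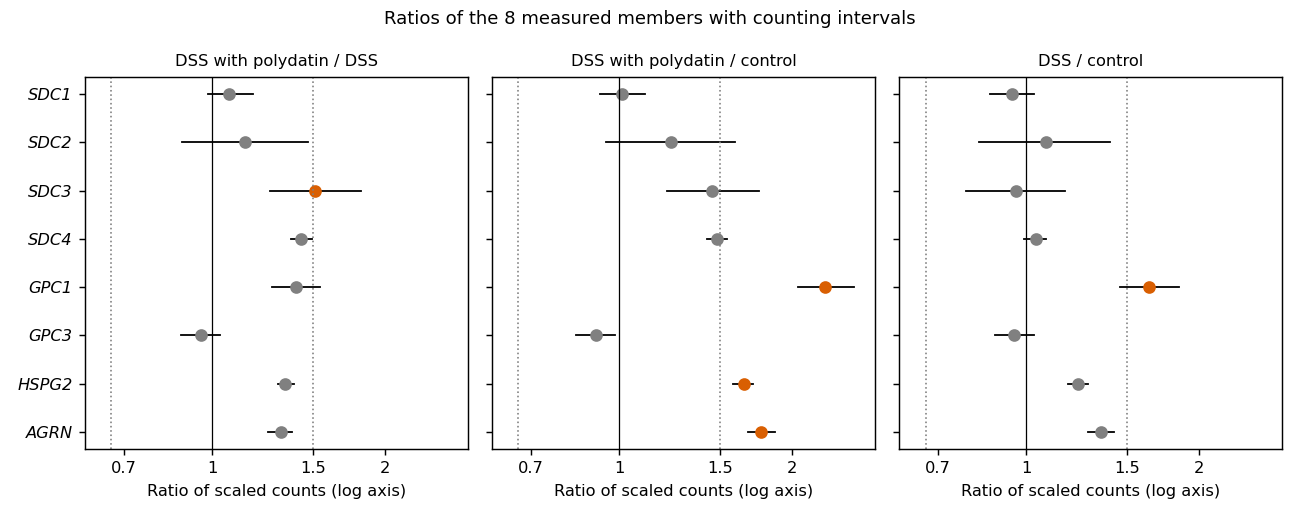
Ratio of scaled counts of each measured member in the 3 comparisons, on a log axis, with exact 95% counting intervals as bars. Dotted lines mark 1.5-fold either way, and orange points are the members called, which are SDC3 in DSS with polydatin over DSS, GPC1, HSPG2 and AGRN in DSS with polydatin over control, and GPC1 in DSS over control.

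Base composition moved with these ratios. Among all measured genes, those whose longest transcript had at least 60% GC had a median log2 ratio of 0.17 in DSS with polydatin against DSS and 0.25 in DSS against control, while those below 40% GC had -0.06 and -0.12. AGRN (67.5% GC), GPC1 (66.7%) and HSPG2 (64.5%) were among the 564 measured genes richest in GC, SDC1 (60.1%) and SDC3 (58.7%) were also GC-rich, and GPC3 (51.4%), SDC4 (48.8%) and SDC2 (43.9%) were not. With the dependence on GC content and length removed, SDC1 stood at 0.829 times control (0.759 to 0.906) in DSS. In DSS with polydatin against DSS the ratios became 1.19 for GPC1 (1.08 to 1.32), 1.09 for AGRN (1.04 to 1.14) and 1.13 for HSPG2 (1.09 to 1.17). No member was then called, while 714 of 14699 genes were called higher and 371 lower. SDC4 stood at 1.47 (1.41 to 1.53), against 1.43 before. With 1 library per group, a trend from library making and one from the treatment cannot be told apart.

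**Figure D4:**
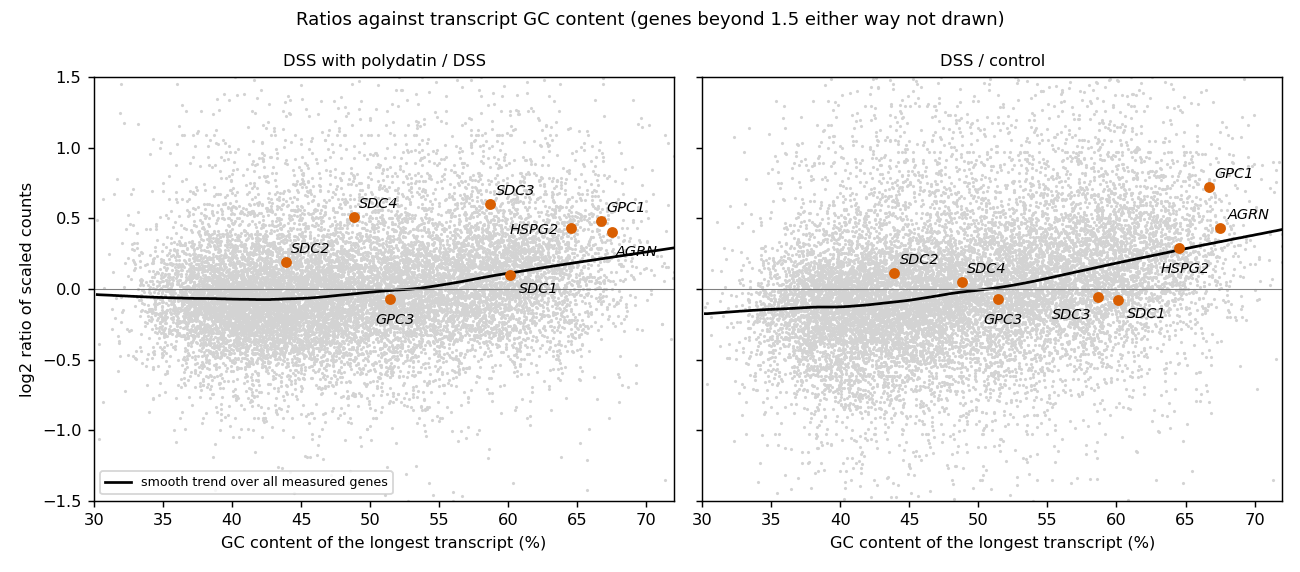
The log2 ratio of each measured gene (grey) and of the 8 measured members (orange) against the GC content of its longest transcript, with the smooth trend over all measured genes in black. SDC4 and SDC3 lie well above the trend in DSS with polydatin over DSS, and HSPG2 and AGRN lie near the trend in DSS over control.

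By the pair of log2 ratios for DSS against control and for DSS with polydatin against DSS, over 3 libraries, the genes most like GPC1 were RNF24, ARFGEF3 and CELSR3, at distances of 0.03, 0.0302 and 0.0321 on the log2 scale. GPC1 was taken because its log2 CPM had the widest range of the members, 1.20. Those most like HSPG2, the member with the highest mean CPM, were UBALD2, JOSD1 and CLTCL1, at 0.0185, 0.0224 and 0.0268. Of the 9208 genes compared, each with at least 10 CPM in every library, 20 lay within 0.1 of GPC1 and 66 within 0.1 of HSPG2.

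The enzymes and partners of heparan sulfate, together with chondroitin sulfate genes listed for comparison, were followed in 14 lists. The lists hold 144 different genes, 105 of them measured, and the counts below include the chondroitin sulfate genes. In DSS against control 22 of the 105 were called higher (21%) and 7 lower (6.67%), beside the 9.45% and 5.81% of all measured genes given above. Between DSS with polydatin and DSS 7 were called higher (6.67%) and 3 lower (2.86%), beside 5.39% and 2.60%. In DSS with polydatin against control 36 were called higher (34.3%) and 11 lower (10.5%), beside 16.0% and 12.4%. Medians of the 105 genes were 0.18, 0.06 and 0.23 on the log2 scale.

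The enzymes that build and sulfate the chain had few calls between DSS and control and none between DSS with polydatin and DSS. In DSS against control 1 of 7 measured genes of the linker and initiation list was called higher, none of 4 of the polymerisation list and none of 6 of the sulfation and epimerisation list, and none was called lower. The linker gene was XYLT1, a xylosyltransferase that starts the chain, with 48 counts in DSS and 19 in control (2.48-fold, 1.43 to 4.46). It is outside the naming rule and is named here after its value was seen, as are EXT1, EXT2, EXTL2, NDST1, HS6ST1, HS2ST1, HPSE, ADAM10, ADAM17, GPLD1, SDCBP2, LAMA3, LAMB2, CXCL8, CSGALNACT1, CHSY3 and UST below. The polymerase genes EXT1 and EXT2 stood at 1.08 (0.999 to 1.17) and 1.04 (0.973 to 1.10) times control in DSS. NDST1, which opens sulfation of the chain, stood at 1.29 times control (1.23 to 1.35), HS6ST1, a 6-O-sulfotransferase, at 1.48 times (1.32 to 1.67) and HS2ST1, the 2-O-sulfotransferase, at 0.769 times (0.730 to 0.810). No gene of these 3 lists was called in DSS with polydatin against DSS, where the medians were -0.08, -0.11 and -0.15. Against control, 4 were called in DSS with polydatin. XYLT1 at 3.40-fold (2.01 to 6.02) and HS6ST1 at 1.54-fold (1.37 to 1.73) were higher. EXTL2, of the polymerisation list, at 0.619 (0.547 to 0.70) and HS2ST1 at 0.664 (0.628 to 0.702) were lower. HS6ST1 is GC-rich (60.9% GC), and its ratio with the dependence on GC content and length removed is not given here.

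Among the donor genes, which supply sugar and sulfate, SLC26A2 was called lower in both steps. SLC26A2, a sulfate transporter of the plasma membrane, had 4402 counts in DSS with polydatin, 8676 in DSS and 13277 in control. It was lower in DSS than in control (0.640, 0.623 to 0.658) and lower in DSS with polydatin than in DSS (0.539, 0.520 to 0.559). UGDH, which makes the UDP-glucuronic acid used in the chain, was 1.60-fold higher in DSS than in control (1.52 to 1.69), and in DSS with polydatin it stood at 1.03 times DSS (0.982 to 1.08). PAPSS2, which makes the sulfate donor, was higher in both comparisons, with 145 counts in DSS with polydatin, 102 in DSS and 55 in control. Its ratio was 1.51 in DSS with polydatin against DSS (1.16 to 1.97) and 1.82 in DSS against control (1.3 to 2.57). Of 9 measured donor genes, 1 was called higher, 1 lower and 7 not called in DSS with polydatin against DSS, and 2 higher, 1 lower and 6 not called in DSS against control. The medians were 0.03 and 0.19.

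Of the genes that edit or release the chains outside the cell, 1 of 2 measured editing genes and 3 of 6 measured shedding genes were called higher in DSS than in control, and none lower. SULF2, which removes 6-O-sulfates at the cell surface, had 436 counts in DSS with polydatin, 532 in DSS and 184 in control, 2.83-fold higher in DSS than in control (2.39 to 3.37). HPSE, the heparanase gene, stood at 1.5 times control in DSS (1.05 to 2.14), just short of the size for calls before rounding. The shedding and release genes called were NOTUM, a secreted WNT deacylase, at 4.00-fold (2.58 to 6.40), MMP14, a membrane metalloprotease, at 1.81-fold (1.69 to 1.95) and the proprotein convertase gene FURIN at 1.60-fold (1.47 to 1.74). The sheddase genes ADAM10 (1 to 1.08) and ADAM17 (0.978 to 1.12) and the phospholipase gene GPLD1 (0.945 to 1.15) each stood at 1.04 times control and were not called. None of these lists had a call in DSS with polydatin against DSS, where SULF2 stood at 0.871 (0.765 to 0.990), NOTUM at 0.942 (0.706 to 1.26) and MMP14 at 1.37 (1.3 to 1.45). FURIN (61.7% GC) stood at 1.36 in DSS against control once the trend was removed and was then not called.

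Lysosomal breakdown genes were mostly above control in DSS, with 3 of 8 measured called higher, 1 lower and a median log2 ratio of 0.49. IDS, the iduronate sulfatase gene, had 101 counts in DSS with polydatin, 67 in DSS and 37 in control, 1.60-fold higher with polydatin than in DSS (1.16 to 2.21) and 1.77-fold higher in DSS than in control (1.17 to 2.73). NAGLU, an N-acetylglucosaminidase gene, was 1.71-fold (1.39 to 2.10) and IDUA, the iduronidase gene, 1.62-fold (1.19 to 2.22) higher in DSS than in control. After removal of that trend, NAGLU stood at 1.44 and IDUA at 1.28 and neither was called. ARSG, a lysosomal sulfatase gene, was lower in DSS (0.548, 0.389 to 0.765). Exons of IDS, NAGLU, IDUA and ARSG overlap other annotated genes over 0.9% to 16.5% of their bases for any 1 partner.

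Among other carriers of the chain, TGFBR3 (betaglycan) was higher in DSS than in control at 1.65-fold (1.54 to 1.76), and NRP1 (neuropilin) was lower at 0.649 (0.601 to 0.70). Against DSS, TGFBR3 stood at 0.877 (0.826 to 0.931) and NRP1 at 1.13 (1.04 to 1.23) in DSS with polydatin. With the trend removed NRP1 stood at 0.670 in DSS against control and was not called. SDCBP, which encodes syntenin, the adaptor that binds syndecan tails, was 1.51-fold higher in DSS than in control (1.43 to 1.60). Its relative SDCBP2 was 2.45-fold higher (1.39 to 4.50) from 45 counts in DSS and 18 in control. No other of the 8 measured cytoplasmic partners was called in DSS against control, and none in DSS with polydatin against DSS.

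Basement membrane partners of perlecan and agrin went different ways in DSS, with 1 of 13 measured called higher and 3 lower. FN1, fibronectin, was 2.29-fold higher in DSS than in control (2.22 to 2.36). The type IV collagen genes COL4A1 and COL4A2 were at 0.318 (0.245 to 0.408) and 0.351 (0.251 to 0.486) times control. LAMA1, a laminin alpha chain gene, had 2603 counts in DSS with polydatin, 4269 in DSS and 8183 in control, lower in DSS with polydatin than in DSS (0.648, 0.617 to 0.680) and lower in DSS than in control (0.511, 0.493 to 0.531). Of the exonic bases of LAMA1, 10.3% overlap AP002409.1 on the opposite strand, as 7.2% of those of UGDH overlap UGDH-AS1. With polydatin, 2 further laminin genes were called higher than in DSS, LAMA3 at 1.84-fold (1.70 to 1.99) and LAMB2 at 1.55-fold (1.44 to 1.67), and LAMA1 was the only one called lower. LAMB2 is GC-rich (60.3% GC), and its ratio after removal of the trend is not given here. Of the 7 pathway list genes called higher in DSS with polydatin against DSS, 6 were called again after that removal.

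Of 13 measured ligands that bind heparan sulfate, 4 were called higher in DSS and none lower. HBEGF, the heparin-binding EGF-like growth factor gene, had 683 counts in DSS with polydatin, 410 in DSS and 140 in control. It was 1.77-fold higher with polydatin than in DSS (1.56 to 2.01) and 2.87-fold higher in DSS than in control (2.36 to 3.5). The chemokine gene CCL2 was 2.82-fold (2.16 to 3.72), VEGFA 1.89-fold (1.82 to 1.96) and AREG, amphiregulin, 1.82-fold (1.74 to 1.90) higher in DSS than in control. HBEGF and CXCL8, a neutrophil chemokine gene, were called higher in DSS with polydatin than in DSS, CXCL8 from 28 counts in DSS with polydatin and 10 in DSS. Among 10 measured receptors, PTPRS, a phosphatase receptor for the chains, was 1.86-fold (1.61 to 2.15) and FGFR4 1.60-fold (1.51 to 1.70) higher in DSS than in control, and none was called in DSS with polydatin against DSS. After removal of that trend, FGFR4 (63.6% GC) stood at 1.34 and was not called.

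The chondroitin sulfate pathway, which shares the linker and the sugar supply, was listed for comparison. Of 12 measured chain enzymes, 2 were called higher in DSS than in control, CHPF, the chondroitin polymerising factor gene, at 2.27-fold (1.86 to 2.77) and UST, a uronyl sulfotransferase gene, at 2.86-fold (1.45 to 6.05) from 35 and 12 counts. With polydatin, 1 was called higher than in DSS, CSGALNACT1, an enzyme that starts chondroitin chains (60 and 32 counts), and 1 lower, CHSY3, a chondroitin synthase (27 and 49 counts). VCAN, versican, had 210 counts in DSS with polydatin, 308 in DSS and 541 in control, 0.558 times control in DSS (0.484 to 0.643), and was the only 1 of 3 measured chondroitin sulfate proteoglycans called in DSS against control. In DSS with polydatin against control, 6 of 13 basement membrane partners were called higher and 3 lower, and 6 of 13 ligands higher and none lower. Of the lysosomal genes 5 of 8 were called higher and 1 lower, of the editing genes 2 of 2 higher, and of the chondroitin chain enzymes 6 of 12 higher and 1 lower. In that comparison HBEGF reached 5.08-fold (4.23 to 6.14).

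**Figure D5:**
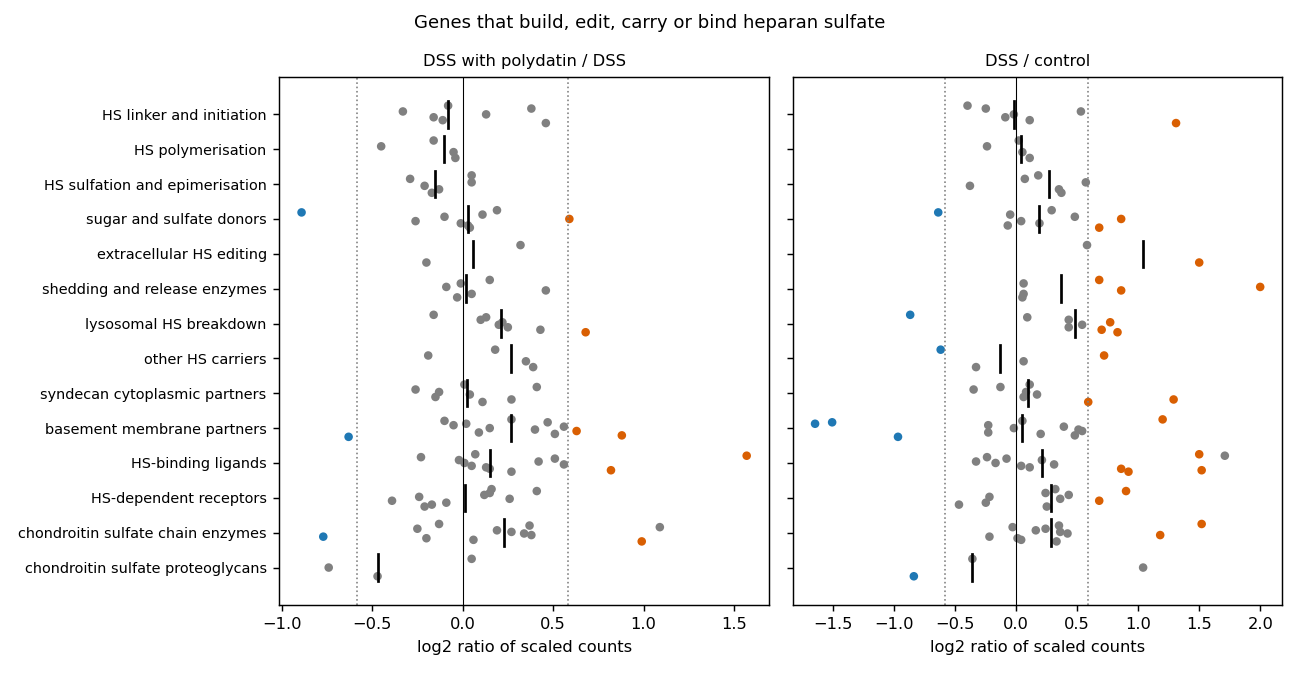
The log2 ratio of each measured gene in the lists of genes that build, edit, carry or bind heparan sulfate (HS) and in the chondroitin sulfate lists, with 1 point per gene, the median as a black bar and 1.5-fold either way as dotted lines. Orange points were called higher and blue points lower. In DSS over control 22 genes were called higher and 7 lower, and in DSS with polydatin over DSS 7 were called higher and 3 lower.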

How the data were processed

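RNA was measured in 3 Caco-2 libraries. Trizol was used for extraction of total RNA and a VAHTS Universal V6 kit for the libraries, per the labels' protocols. HISAT2 and GRCh38 are the aligner and build named, per the submitters' processing notes. No source used here gives the aligner's version, the counter, the annotation or the strandedness. The authors deposited unnormalized whole-number counts for each Ensembl gene. Total counts were 16667622 to 18825914 per library.

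Symbols were matched for 60463 of 60664 identifiers, and positions, exon lengths and GC content came from GENCODE release 29 (GRCh38). Scaling used the TMM method of edgeR 4.0.16 (R 4.3.3). Ratios and exact 95% intervals were computed in Python 3.11.15 with scipy 1.17.1, with 0.5 added to both counts where either was 0. The computation was checked on simulated counts that held counting error alone, so the check does not cover variation between libraries. With 1 library per group there is no test. Members and lists were chosen with earlier results of these data known. From each list, up to 4 genes were named among those called in DSS against control or in DSS with polydatin against DSS at 5 CPM or more, by the interval bound nearest to 1. Members were all named. Alternatives were scaling to total counts, size factors from DESeq2 1.42.0, the absence of a filter, a floor of 10 CPM, thinning to the smallest library, 2 counts added, a GC content and length trend removed (statsmodels 0.14.6, 14699 genes), a 2-fold rule and the mean in place of the median.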

Additional observations from a re-analysis of the deposited data

How the results depend on the processing

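With total-count scaling, members called higher were 2 in DSS with polydatin against DSS, where the median was 0.50, and 5 against control. Of 14868 measured genes, 1132 were then called higher in DSS with polydatin against DSS and 2957 against control. Their median log2 ratios were 0.08 and 0.09, beside -0.01 and -0.02 with TMM. That scaling called 12 pathway list genes higher and 1 lower in DSS with polydatin against DSS, and 234 of all measured genes lower, against 384. With a floor of 10 CPM, 3 pathway list genes were called higher in DSS with polydatin against DSS and 7 lower against control. Over all measured genes that floor gave 749 higher and 438 lower for DSS against control, against 1398 and 859, 237 higher and 234 lower for DSS with polydatin against DSS, against 797 and 384, and 1269 higher for DSS with polydatin against control, against 2367. Removing the trend on GC content and length left no member called in DSS against control (0) or in DSS with polydatin against DSS (0), and the medians were -0.01, a reversed sign, for DSS against control, 0.21 for DSS with polydatin against DSS and 0.19 against control. In DSS with polydatin against control 2 members were then called, GPC1, as before, and SDC4 (1.56), while HSPG2 (1.06) and AGRN (1.12) were not. Of the 14699 genes with that trend removed, 1219 were called higher and 745 lower in DSS against control. The numbers were 714 and 371 in DSS with polydatin against DSS, and 2014 and 1569 in DSS with polydatin against control. Of the pathway list genes called higher, 18 of 22 for DSS against control, 6 of 7 for DSS with polydatin against DSS and 26 of 36 for DSS with polydatin against control were called again with that trend removed, as were 6 of 7, 3 of 3 and 9 of 11 of those called lower. With a 2-fold rule the members called higher were 0 for DSS against control, 0 for DSS with polydatin against DSS and 1, GPC1, against control, and the pathway list genes called were 9 higher and 2 lower, 1 higher and 0 lower, and 20 higher and 6 lower in the same order. Over all measured genes that rule called 627 higher and 261 lower, 287 and 68, and 1262 and 483. The log2 ratio of SDC4 in DSS with polydatin against DSS ranged from 0.50 to 0.60 over 7 settings, that of GPC1 from 0.25 to 0.57 and that of AGRN from 0.12 to 0.48. DESeq2 size factors, the absence of a filter, thinning and 2 counts added left all 24 log2 ratios of members within their intervals. The cause of these differences was not tested. No paired analysis was possible because each group had 1 library, and leaving out a library was not possible for the same reason. Depth limits SDC2, SDC3 and GPC4 most, with at most 282 counts in a library.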
